A study of Mus musculus with 12 samples.

Results

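Mybbp1a, Birc5, Fxyd5 and Myb are 4 genes of interest for nuclear signalling of the growth hormone receptor and for proliferation, out of 10762 genes and unnamed spots tested. They were taken by name, as the spots whose single gene symbol is one of the 4. Each had 1 spot, and all 4 spots had a value on all 12 arrays. Total RNA of mouse samples was compared by spotted arrays, with the sample labelled in Cy3 and a common reference of embryonic RNA in Cy5. The sample names give a receptor form, WT (wild type) or NLS (the usual abbreviation of nuclear localization signal), and a 0 or a 1 before GH (growth hormone). Both forms were measured at 0GH and at 1GH, which makes 4 groups of 3 arrays with the letters b, c and d. The labels list human GH at 100 ng/ml for every sample, those of 0GH included, and every name carries a 10 of unstated meaning. The 0 and the 1 have no unit, so they are used as numbers and not as times or doses. The sources used here name neither a cell type or vector nor the clones or cultures behind each form, so p-values measure only the spread between these arrays, which may be technical.

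Mybbp1a encodes a mainly nucleolar protein that was found through its binding to Myb and that takes part in ribosomal RNA synthesis and processing. Myb is a transcription factor of blood cell precursors that keeps them dividing and immature. Birc5 encodes survivin, a member of the inhibitor of apoptosis family whose best known work is in the chromosomal passenger complex during mitosis, and its transcript rises in dividing cells. Fxyd5 encodes dysadherin, a small membrane protein that modulates the Na,K-ATPase and lowers cell adhesion through E-cadherin. The growth hormone receptor is a cell surface receptor that signals through JAK2 and STAT5, and it has also been found in the nucleus of dividing cells.

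Promoters of all 4 genes were found in RefSeq (GRCm38.p6), from 250 bases before to 50 after the start of the gene. Those of Mybbp1a, the one gene whose WT and NLS arrays did not overlap, and of Birc5, which lies on the same chromosome and did not follow the receptor form, are shown. Capitals mark the E-box CACGTG in Mybbp1a, a site type bound by Myc and related factors, and the GC box GGCGGG or its reverse complement in Birc5. The first lies at chr11:72441077-72441376 and the second at chr11:117848987-117849286, both on the plus strand.
Mybbp1a: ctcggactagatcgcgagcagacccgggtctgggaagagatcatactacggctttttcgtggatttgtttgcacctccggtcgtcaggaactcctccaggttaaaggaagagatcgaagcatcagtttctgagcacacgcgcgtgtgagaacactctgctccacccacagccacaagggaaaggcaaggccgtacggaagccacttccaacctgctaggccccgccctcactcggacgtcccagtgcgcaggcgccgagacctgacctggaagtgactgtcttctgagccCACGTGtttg
Birc5: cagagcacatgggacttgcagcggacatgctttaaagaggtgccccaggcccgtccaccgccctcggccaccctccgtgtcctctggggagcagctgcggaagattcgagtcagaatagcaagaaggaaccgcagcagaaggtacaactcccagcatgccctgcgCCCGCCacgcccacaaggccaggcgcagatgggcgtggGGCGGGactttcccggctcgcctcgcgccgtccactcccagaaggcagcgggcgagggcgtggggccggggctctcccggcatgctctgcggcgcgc
The letters were searched on both strands in 32851 promoter windows of 300 bases. CACGTG occurs in 7.15% of these windows, and among the 4 genes in that of Mybbp1a, where its first base lies 41 bases into the gene. GGCGGG occurs in 35.3% of windows, with 1 match in Mybbp1a, 2 in Birc5, 6 in Myb, some of them overlapping, and 0 in Fxyd5. The Myb letters AACNG occur in 80.3% of windows and once in each of the 4. The STAT letters TTCNNNGAA, held by 8.3% of windows, and the cell cycle letters TTTGAA, held by 17.9%, have 0 matches in the 4 windows. The arrays measure RNA and not binding, so these are letters only.

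Each array gave values for 15939 to 19700 of its 23040 spots. Levels are log2 ratios of sample over reference after subtraction of each array's median over the tested features, called centred log2 ratios. Before centring these medians ran from -0.52 to 1.46. The deposited ratio does not name its numerator, and the sign was set so that genes of embryonic tissues lie on the reference side. Of 44 such genes measured 40 did, with a median of -4.35. The opposite reading would turn every sign. Of the 25 such genes measured on all 12 arrays, 8 were higher and 17 lower with NLS over both GH numbers. That is 32% higher, against 47.7% of all features. In limma 2 of the 25, both lower, had an unadjusted p under 0.05, against 5.27% of all features. The 2 with the smallest p on each side were Mylpf at 2.5 (SE 1.67) and Afp at 0.66 (SE 0.53), and Acta1 at -2.3 (SE 0.90) and Col5a1 at -1.33 (SE 0.49). A ratio to the reference cannot separate fewer cells of a type from less RNA per cell.

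Mybbp1a was higher with NLS than with WT on every array at both GH numbers. Its centred log2 ratio was 0.07, 0.45 and 0.51 in WT 0GH for letters b, c and d, and 0.11, -0.10 and 0.36 in WT 1GH. In NLS 0GH it was 1.07, 2.19 and 2.12, and in NLS 1GH 1.69, 1.63 and 1.35. The lowest NLS array, at 1.07, lay above the highest WT array, at 0.51, so the forms did not overlap. WT arrays averaged 0.34 ± 0.24 (SD, n = 3) at 0GH and 0.12 ± 0.23 at 1GH, and NLS arrays 1.79 ± 0.63 and 1.55 ± 0.18. In the order of the means, NLS 0GH and NLS 1GH overlapped, as did WT 0GH and WT 1GH, and the gap lay between the forms.

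**Figure D1:**
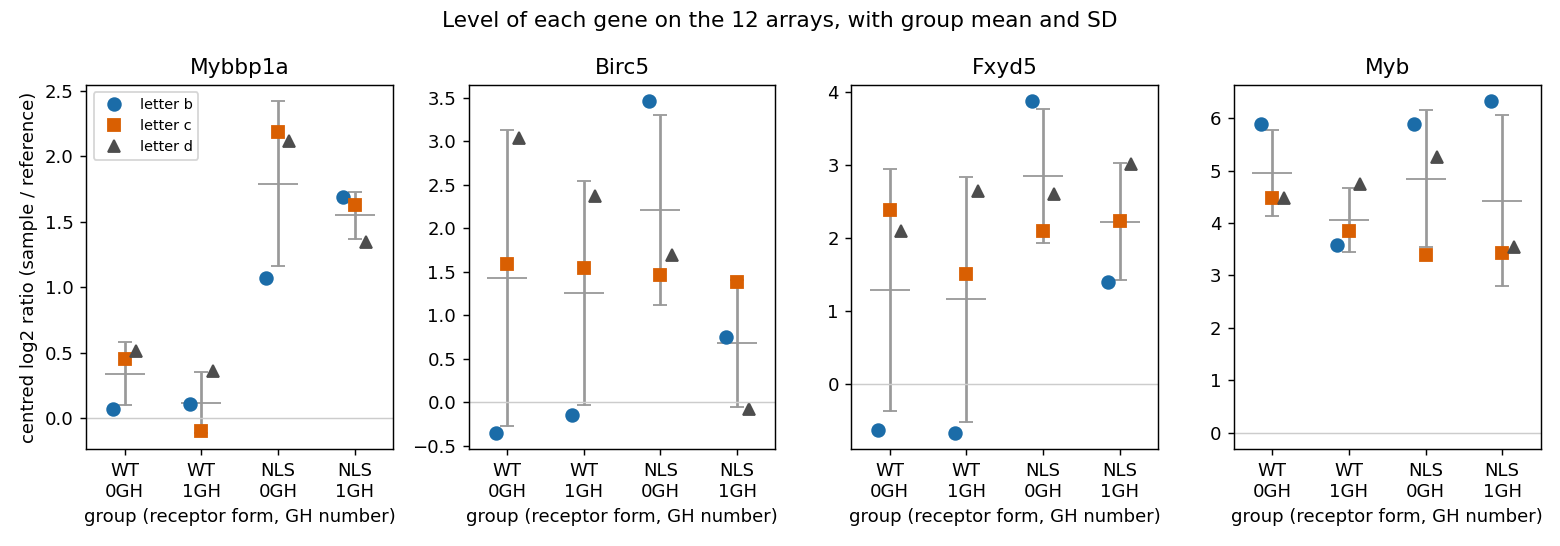
Centred log2 ratio of sample over reference (vertical axis, log2 units) of each gene in the 4 groups (horizontal axis), one point per array with its letter, and bars for the group mean and SD (n = 3). Each panel has its own vertical scale. For Mybbp1a the 6 NLS arrays lie between 1.07 and 2.19 and the 6 WT arrays between -0.10 and 0.51, while in the other 3 panels the forms overlap.

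The difference of NLS minus WT in Mybbp1a was 1.45 log2 units at 0GH (SE 0.39), a 2.73-fold difference. Letters b, c and d gave 1.0, 1.74 and 1.61. At 1GH it was 1.43 (SE 0.39), and the letters gave 1.58, 1.73 and 0.98. Mybbp1a was thus higher in NLS in all 6 pairs of a letter and a GH number, as were 3.49% of all features. Averaged over both GH numbers the difference was 1.44 (SE 0.27, 95% interval 0.83 to 2.05), or 2.71-fold. The exact two-sided permutation test over the 6 NLS and 6 WT arrays gave p = 0.00216, the smallest that 924 assignments allow. Exchanging arrays only within a letter gave an exact p = 0.00926, again the smallest possible with 216 assignments. One such test was run for each of the 4 genes, and these p-values carry no adjustment. The genes and tests were chosen with earlier results of these data known, so the p-values are not independent support.

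Set against all features, Mybbp1a ranked 4 of 10762 by p in the averaged comparison, 31 at 0GH and 20 at 1GH. It did not pass the adjusted threshold of 0.05 in limma, with an adjusted p of 0.794 averaged, 0.951 at 0GH and 0.999 at 1GH. The lowest adjusted p of any feature in the averaged comparison was 0.157. In limma 0% of features passed at 0GH, 0% at 1GH and 0% over both. Before adjustment Mybbp1a alone of the 4 genes had a p under 0.05 in these 3 comparisons, against 4.61% of all features at 0GH, 3.49% at 1GH and 5.27% over both. At a single GH number this unadjusted call was lost under some alternatives in limma. At 0GH it was lost without centring (1.27, SE 0.67) and without letter c (1.3, SE 0.58). At 1GH it was lost with the green dye incorporation as a covariate (1.07, SE 0.52) and without letter c (1.28, SE 0.58). The lowest NLS array exceeded the highest WT array, 6 against 6, for 1 of the 4 genes and for 0.567% of all features (61 of 10762). At 0GH alone the 3 NLS arrays lay above the 3 WT arrays for 1 of 4 genes and 4.66% of features, and at 1GH for 1 of 4 and 4.48%. Its arrays were also close together, with a pooled SD within groups of 0.37, against 1.0 for the median feature, and 10% of features had a smaller one.

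**Figure D2:**
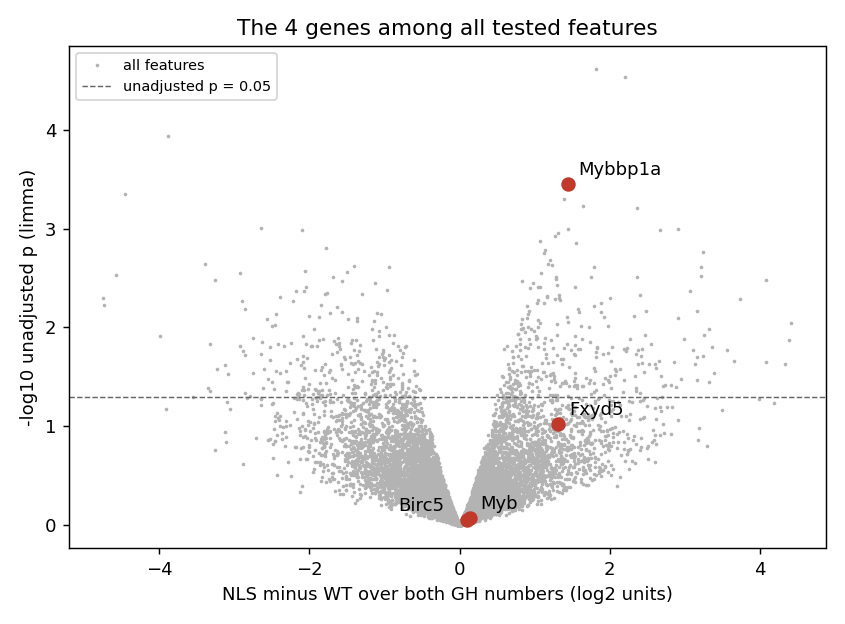
Difference of NLS minus WT over both GH numbers in log2 units (horizontal axis) against -log10 of the unadjusted limma p (vertical axis) for all 10762 features in grey and the 4 genes in red. Mybbp1a stands at 1.44 and rank 4, Fxyd5 at 1.32 lies below the dashed line at the unadjusted threshold, and Birc5 and Myb lie near 0.

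The Gapdh control spots also differed between the forms on some arrays. Their median was higher in NLS in 4 of 6 pairs of a letter and a GH number and lower in 2, and Mybbp1a was higher in all 6. For letters b, c and d the Gapdh difference was 0.39, 0.55 and 1.22 log2 units at 0GH and -0.15, 0.74 and -0.18 at 1GH. The part of Gapdh in the difference of Mybbp1a was not tested.

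Fxyd5 had a higher mean with NLS, and most of that difference came from the arrays of letter b. Its centred log2 ratio was -0.63, 2.38 and 2.09 in WT 0GH for letters b, c and d, and -0.67, 1.5 and 2.64 in WT 1GH. In NLS 0GH it was 3.87, 2.09 and 2.60, and in NLS 1GH 1.40, 2.23 and 3.01. The pair of WT arrays of letter b was the lowest of all 12, and the other 4 WT arrays lay within the range of the NLS arrays. WT arrays averaged 1.28 ± 1.66 (SD, n = 3) at 0GH and 1.16 ± 1.68 at 1GH, and NLS arrays 2.85 ± 0.92 and 2.22 ± 0.80, and neighbouring groups in the order of the means overlapped.

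NLS minus WT in Fxyd5 was 1.57 at 0GH (SE 1.01) and 1.06 at 1GH (SE 1.01). Over both GH numbers it was 1.32 (SE 0.71, 95% interval -0.27 to 2.90), with an adjusted limma p of 0.916 and an exact two-sided permutation p = 0.108. Within letters the exact p was 0.0556. Letters b, c and d gave 4.5, -0.29 and 0.51 at 0GH, and 2.07, 0.73 and 0.37 at 1GH. Their means over both GH numbers were 3.29, 0.22 and 0.44. These means shared a sign but not a size, and letter c at 0GH had the opposite sign. Without the 4 arrays of letter b the fitted difference was 0.33 (SE 0.41), with 0.11 at 0GH and 0.55 at 1GH. Leaving out the WT array of letter b alone gave 0.62 at 0GH and 0.14 at 1GH. The arrays of letter b also had more spots without a value, 24.9% to 30.8% against 14.5% to 23.5% for c and d, and the part of this in the result was not tested.

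Birc5 did not follow the receptor form. Its centred log2 ratio was -0.35, 1.59 and 3.04 in WT 0GH for letters b, c and d, and -0.15, 1.54 and 2.37 in WT 1GH. In NLS 0GH it was 3.46, 1.46 and 1.69, and in NLS 1GH 0.75, 1.38 and -0.08. WT arrays were low in b and high in d, while letter c stayed between 1.38 and 1.59 in all 4 groups. WT arrays averaged 1.43 ± 1.70 (SD, n = 3) at 0GH and 1.26 ± 1.29 at 1GH, and NLS arrays 2.21 ± 1.09 and 0.68 ± 0.73. Neighbouring groups in the order of the means overlapped.

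NLS minus WT in Birc5 was 0.78 at 0GH (SE 0.96), made up of 3.82, -0.13 and -1.35 for letters b, c and d. At 1GH it was -0.57 (SE 0.96), made up of 0.90, -0.17 and -2.45. Averaged over both GH numbers the letters gave 2.36, -0.15 and -1.90, so b and d had opposite signs. The fitted difference was 0.10 (SE 0.68, adjusted limma p = 0.991), and the exact two-sided permutation test gave p = 0.874. The 95% interval ran from -1.40 to 1.61 and leaves room for a difference of the size seen in Mybbp1a. Without letter b the value was -1.02 (SE 0.53, limma).

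**Figure D3:**
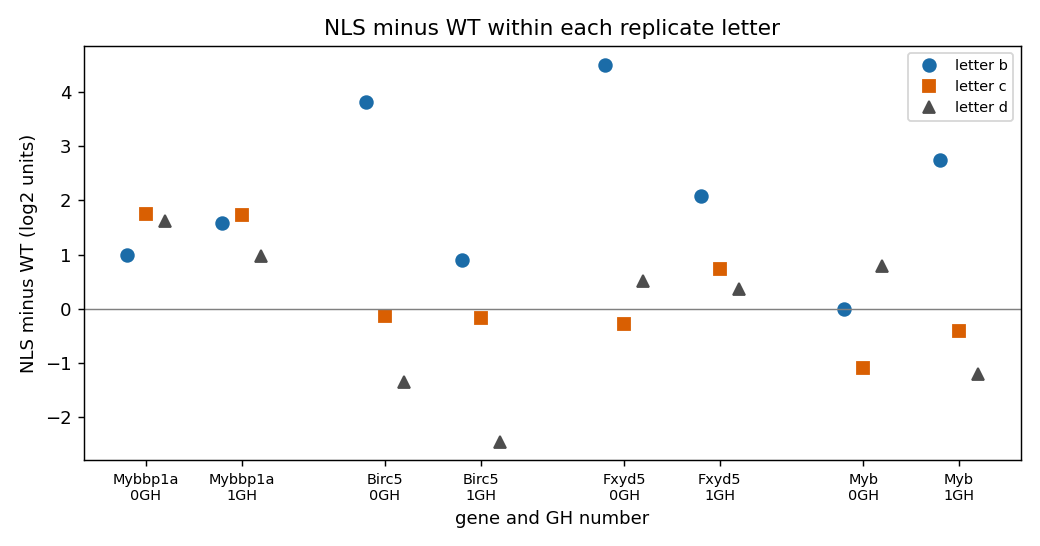
NLS minus WT in log2 units (vertical axis) for each gene at 0GH and 1GH (horizontal axis), one point per replicate letter. The 6 points of Mybbp1a lie between 0.98 and 1.74, whereas those of Birc5 run from 3.82 in letter b to -2.45 in letter d and letter b gives the highest point for Fxyd5 at both GH numbers.

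Myb itself did not follow the level of Mybbp1a. Its centred log2 ratio was 5.89, 4.48 and 4.48 in WT 0GH for letters b, c and d, and 3.58, 3.84 and 4.75 in WT 1GH. In NLS 0GH it was 5.89, 3.39 and 5.26, and in NLS 1GH 6.32, 3.43 and 3.55. Every array lay on the sample side of the reference, at 3.39 or more, and the highest and the lowest array were both NLS. WT arrays averaged 4.95 ± 0.82 (SD, n = 3) at 0GH and 4.06 ± 0.61 at 1GH, and NLS arrays 4.85 ± 1.30 and 4.43 ± 1.63, and neighbouring groups in the order of the means overlapped. NLS minus WT was -0.10 at 0GH (SE 0.89), 0.37 at 1GH (SE 0.89) and 0.14 over both (SE 0.63, 95% interval -1.27 to 1.54). The adjusted p in limma was 0.991. The exact two-sided permutation test gave p = 0.807. Letter b gave 1.37, c -0.75 and d -0.21, and without b the value was -0.48 (SE 0.50).

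For the GH number, 95% intervals of all 4 genes covered 0 in both receptor forms. In WT arrays 1GH minus 0GH was -0.22 for Mybbp1a (SE 0.39), -0.17 for Birc5 (SE 0.96), -0.12 for Fxyd5 (SE 1.01) and -0.89 for Myb (SE 0.89). For Myb the letters gave -2.31, -0.64 and 0.27 in the order b, c, d. In NLS arrays it was -0.24 for Mybbp1a, -1.52 for Birc5, -0.64 for Fxyd5 and -0.42 for Myb, with the same SE for each gene. For Birc5 the letters b, c and d gave -2.72, -0.08 and -1.77 in NLS, and 0.21, -0.04 and -0.67 in WT. The 95% interval of its NLS difference, -3.65 to 0.60, covers 0. That difference was -0.90 without the NLS 0GH array of letter b and -2.25 without letter c.

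In these GH comparisons 0 of the 4 genes passed in limma and 0 had an unadjusted p under 0.05. Over all features 0% passed in WT and 0% in NLS, and 2.69% and 2.92% had such a p. The test of the difference itself, the interaction of receptor form with GH number, gave -0.02 for Mybbp1a (SE 0.55), -1.35 for Birc5 (SE 1.35), -0.52 for Fxyd5 (SE 1.43) and 0.48 for Myb (SE 1.26). Each had an adjusted limma p of 1.0, with 0% of features passing and 2.42% at an unadjusted p under 0.05. For Mybbp1a the interval of the interaction ran from -1.23 to 1.19. These comparisons share arrays with those of the receptor form.

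Across the 12 arrays, which share letters and groups, Pearson's r between the 4 genes was 0.69 for Birc5 and Fxyd5 and 0.46 for Mybbp1a and Fxyd5. It was 0.08 for Mybbp1a and Birc5, and 0.00 for Mybbp1a and Myb. The named genes most like Mybbp1a over the 12 arrays were Kpnb1, an importin (r = 0.96), Fkbp1a, an immunophilin (0.95), and Phgdh, the first enzyme of serine synthesis (0.95). Their NLS minus WT differences were 0.56 (SE 0.23), 1.31 (SE 0.29) and 2.21 (SE 0.31), with adjusted limma p of 0.899, 0.794 and 0.157. Mybbp1a itself separated the forms, so genes chosen for likeness to it tend to share its difference. Most like Birc5 were Kdm3a, a histone demethylase (0.93), Mrpl52, a mitochondrial ribosomal protein (0.84), and 4930544M13Rik (0.84). Those of Fxyd5 were Serpini2 (0.94), F8a (0.93) and Pgm2 (0.92), and those of Myb were Mrgprb3 (0.90), Crtc3 (0.90) and Hikeshi (0.89). With so many genes compared over 12 arrays, these values are descriptions.

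The partners of Mybbp1a in the nucleolus and at RNA polymerase I lay on both the higher and the lower side. Their movement as a group was not tested. Of 15 measured on all arrays out of 26 listed, 9 were higher and 6 lower with NLS over both GH numbers, 60% higher against 47.7% of all features. Their median difference was 0.13 against -0.03 for all. In limma 0 passed and 1 of 15 had an unadjusted p under 0.05, against 5.27% of all features. This gene was Nop58, a core protein of box C/D small nucleolar particles. Its difference was 1.07 (SE 0.24, adjusted p = 0.794 in limma). Its WT arrays, at -0.91 to 0.07, lay below its NLS arrays, at 0.42 to 0.97, a separation held by 0.567% of all features. It is shown because it had the smallest p on the higher side of the list. The helicase Ddx21 was at 0.91 (SE 0.45). On the lower side were Ubtf, the polymerase I factor UBF, at -1.31 (SE 0.86), and Taf1a at -1.14 (SE 0.98).

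**Figure D4:**
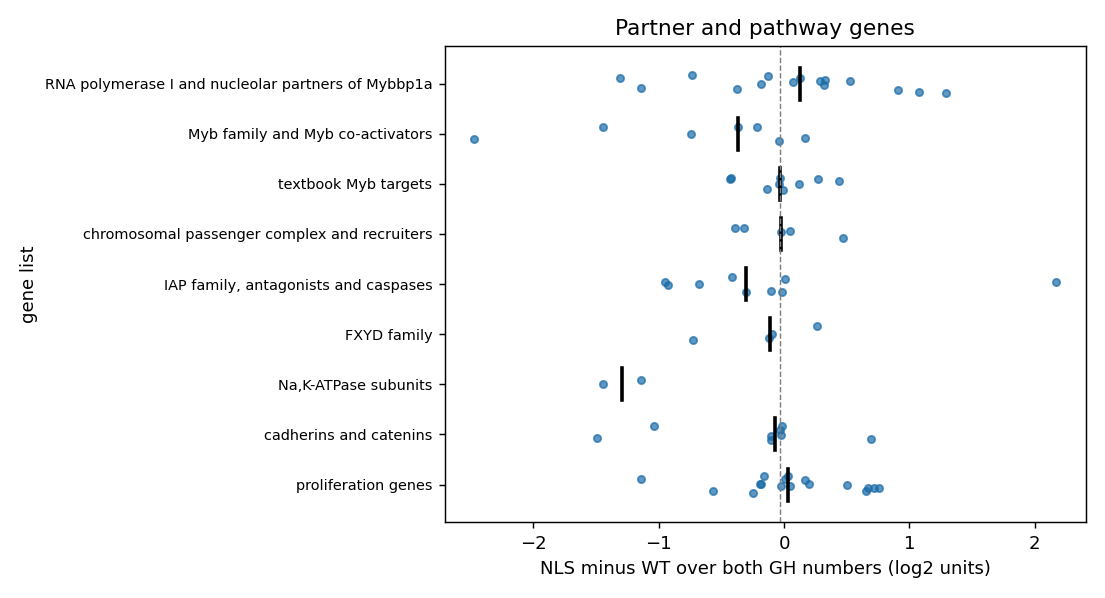
Difference of NLS minus WT over both GH numbers in log2 units (horizontal axis) for the measured genes of 9 lists around the 4 genes (vertical axis), one point per gene, with a black bar at each list's median and a dashed line at the median of all features, -0.03. None of the points passed the adjusted threshold in limma. Nop58, Mybl1, Birc2 and Ctnna1, each in a different list, had an unadjusted p under 0.05, as did 5.27% of all features.

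Of the Myb family and its co-activators 1 of 7 measured genes was higher and 6 were lower, with a median of -0.36. Over all features 47.7% were higher. In limma 1 of the 7 had an unadjusted p under 0.05, against 5.27% of all features. Mybl1, the relative A-Myb, was at -2.47 (SE 1.06, unadjusted p = 0.0423 and adjusted p = 0.899 in limma), with WT arrays from -2.40 to 4.12 and NLS arrays from -4.67 to 0.83. Taf12 was at -0.75 (SE 0.54) and the kinase Pim1, the 1 higher, at 0.16 (SE 1.33). Of 9 textbook Myb targets 3 were higher and 6 lower, against 47.7% of all features higher, with a median of -0.03. In limma 0 had an unadjusted p under 0.05, against 5.27% of all features. Bcl2, an inhibitor of apoptosis, was at 0.12 (SE 0.30), Cd4 at 0.44 (SE 0.35), Hspa8 at -0.14 (SE 0.37) and Ccne1, a G1/S cyclin, at -0.43 (SE 1.17).

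Genes that work with Birc5 in mitosis lay near 0. Of 5 measured genes of the chromosomal passenger complex and its recruiters 2 were higher and 3 lower, with a median of -0.02. The share higher over all features was 47.7%. Aurkb, the kinase of the complex, was at 0.05 (SE 0.29), Rcc2 at 0.47 (SE 0.30), Haspin at -0.32 (SE 0.27) and Kif20a at -0.39 (SE 0.36). Of 17 proliferation genes 10 were higher and 7 lower, against 47.7% of all features higher, with a median of 0.03. In limma 0 had an unadjusted p under 0.05, against 5.27% of all features. The replication helicase subunits Mcm5, at 0.75 (SE 0.34), and Mcm7, at 0.65 (SE 0.31), had the smallest p on the higher side, and Mcm3, at -1.14 (SE 0.80), and Top2a, at -0.57 (SE 0.40), on the lower. Of 9 measured genes of the inhibitor of apoptosis family, its antagonists and caspases 2 were higher and 7 lower, with a median of -0.31. Over all features 47.7% were higher. In limma 1 of the 9 had an unadjusted p under 0.05, against 5.27% of all features. Birc2, a ubiquitin ligase of that family, was at 2.17 (SE 0.95, unadjusted p = 0.0453 and adjusted p = 0.899 in limma), with NLS arrays from -0.52 to 5.0 and WT arrays from -2.73 to 2.40. Birc3 was at 0.01 (SE 0.53), Birc6 at -0.95 (SE 0.51) and Casp6 at -0.68 (SE 0.53).

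Around Fxyd5 few genes were measured on all arrays. The counts of genes higher or lower stand beside a share of 47.7% higher over all features. Of 4 other FXYD family genes 1 was higher, Fxyd6 at 0.26 (SE 0.51), and 3 were lower, among them Fxyd2 at -0.72 (SE 0.40) and Fxyd1 at -0.12 (SE 0.50). Both measured Na,K-ATPase subunits were lower, Atp1b1 at -1.14 (SE 0.55) and Atp1b2 at -1.44 (SE 1.59). Of 8 cadherin and catenin genes, a list that also holds Ccl2, 1 was higher and 7 lower, with a median of -0.07. Over all features 47.7% were higher. In limma 1 of the 8 had an unadjusted p under 0.05, against 5.27% of all features. Ctnna1, which links cadherins to actin, was at -1.49 (SE 0.63, unadjusted p = 0.0395 and adjusted p = 0.899 in limma), with WT arrays from 0.77 to 1.70 and NLS arrays from -3.80 to 0.94. Jup was at -1.04 (SE 0.74) and Cdh5 at 0.70 (SE 0.43).

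Marker lists of other cell types were read in the same way, and 0 markers passed in limma. For NLS minus WT the median was -0.30 for 6 of 9 B lymphoid markers measured, -0.01 for 5 of 11 myeloid and mast cell, 0.15 for 2 of 7 T lymphoid, -1.14 for 2 of 7 erythroid, -0.18 for 6 of 8 fibroblast, 0.38 for 2 of 6 epithelial and -0.14 for 4 of 6 hepatocyte markers. The 2 erythroid markers measured were Hba-a1 and Gata1, and for each of them the WT and NLS arrays overlapped. Hba-a1 ran from -2.82 to -0.90 on WT arrays and from -3.95 to -1.99 on NLS arrays, and Gata1 from 0.99 to 3.02 and from 0.12 to 2.44. Their part in the difference of Mybbp1a was not tested.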

How the data were processed

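Values are the log2 ratios of Cy3 sample and Cy5 reference as deposited. Per the series' design text, the authors adjusted the control value by a Lowess fit, each point using 50% of the data, and raised control channels under 200 to that number. The log base was inferred from the range of -14.6 to 18.2. No source used here names the scanner, the background method or the numerator. All values were multiplied by -1 (embryo-tissue genes).

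Of 23040 spots, 902 controls were left out and 11245 of the rest had a value on all 12 arrays. Spots of one gene were averaged, giving 10762 features (8707 named genes). Symbols follow the platform annotation (16249 of 16955 single-symbol spots matched RefSeq by Entrez identifier). Arrays were centred on their median and the 4 groups fitted with limma 3.58.1 in R 4.3.3, two-sided, with Benjamini-Hochberg adjustment over all features and a threshold of 0.05. The fit was checked on simulated data without correlation within letters and with differences larger than that of Mybbp1a. This check does not show how the fit performs on these data. Exact permutation tests ran in Python 3.11.15. An interval is that of the limma fit.

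The members, lists and tests were chosen with earlier results of these data known. List examples are the 2 genes with the smallest p on each side over both GH numbers, marker lists are given by counts and medians, and the 3 most similar named genes by Pearson's r. Arrays of a letter have the same red dye incorporation (b 19.3, c 19.8 and d 17.9 bp per dye molecule, per the labels), so the letter was a block in an alternative fit. Deviations from group means correlated at 0.043 to 0.263 within letters and -0.187 to 0.066 between them. Other alternatives were a random block, no centring, quantile normalization, spots kept apart, features with 2 or more values in each group, omission of the outer 5% of ratios on either side, green dye incorporation as a covariate, and each array or letter left out. The number of arrays limits the precision.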

Additional observations from a re-analysis of the deposited data

Results flagged for a closer look

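Opposite signs in all letters were looked for in 39 named genes, by receptor form and by GH number. The share of all features with such a pattern was not computed, so a gene found this way is a description and not a result. The 1 gene found was Aurkb, the kinase partner of Birc5, which differed in opposite directions with the GH number in the receptor forms. For 1GH minus 0GH its mean was 0.32 with WT (0.09 to 0.53 over the 3 letters) and -0.22 with NLS (-0.44 to -0.09). The difference between the forms was -0.55 (SE 0.58), and its interaction test in limma had an adjusted p of 1.0.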

How the results depend on the processing

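In limma, 0 features passed the threshold in any of the 6 comparisons under any alternative run. For Mybbp1a, NLS minus WT over both GH numbers ranged from 1.24 to 1.71 over the alternatives (adjusted p 0.298 to 1.0) and from 1.29 to 1.62 with arrays or letters left out (adjusted p 0.169 to 1.0). With the replicate block it was 1.44 (SE 0.26, adjusted p = 0.395 in limma), and features at an unadjusted p under 0.05 numbered 854 against 567; the paired fit changed no call. Without centring it was 1.55 (SE 0.47, adjusted p = 1.0 in limma). Signs turned, with the cause not tested, as follows. Quantile normalization gave 0.07 for Myb at 0GH and -0.13 for Birc5 over both. The green dye covariate gave 0.01 for Myb at 0GH and 0.11 for its GH difference in NLS. Without a turn of sign it moved Myb to 1.85 at 1GH, 0.93 over both, -1.73 for GH in WT and 1.84 for the interaction. Without centring the GH difference of Mybbp1a in NLS was 0.08, and the interactions were 0.56 for Mybbp1a and 0.06 for Fxyd5. Without the outer 5% of ratios the GH difference of Birc5 in WT was 0.08 and the interaction of Mybbp1a 0.18, while Birc5 moved to 1.59 at 0GH, -0.02 at 1GH and 0.79 over both, and Fxyd5 and Myb had no value. With arrays or letters left out, Birc5 ranged from -0.74 to 1.85 at 0GH, -1.31 to 0.37 at 1GH, -1.02 to 1.11 over both, -1.06 to 0.64 for GH in WT, -2.25 to -0.90 for GH in NLS and -2.16 to -0.47 for the interaction. Myb ranged from -0.63 to 0.63 at 0GH, -0.81 to 1.16 at 1GH, -0.48 to 0.58 over both, -1.36 to 0.23 for GH in NLS and -0.65 to 1.71 for the interaction. Fxyd5 ranged from 0.11 to 2.51 at 0GH, 0.14 to 1.8 at 1GH, 0.33 to 1.86 over both, -1.07 to 0.79 for GH in WT, -1.16 to 0.28 for GH in NLS and -1.43 to 0.44 for the interaction, and Mybbp1a from -0.67 to 0.03 for GH in NLS and -0.38 to 0.28 for the interaction. Exact permutation p-values with 1 array left out were 0.00216 each time for Mybbp1a, which is the smallest that 5 against 6 arrays allow and says nothing about stability, 0.535 to 0.939 for Birc5, 0.0541 to 0.219 for Fxyd5 and 0.509 to 0.996 for Myb.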
